A study of Mus musculus with 4 samples.

Results

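The 9 genes described here code for interferon-induced GTPases: the guanylate-binding proteins Gbp2, Gbp3, Gbp4, Gbp5 and Gbp7 and the immunity-related GTPases Iigp1, Igtp, Irgm1 and Irgm2. They were chosen by name from the 27998 genes of the count matrices, and all 9 were found in each of the 4 libraries. Interferons bind receptors that signal through JAK kinases to STAT and IRF transcription factors, which switch these genes on in most cell types. The proteins gather on membranes that enclose microbes; the guanylate-binding proteins open such compartments and assist inflammasomes, Iigp1 is an effector that loads onto the membrane, and Irgm1, Irgm2 and Igtp (also called Irgm3) are regulators that keep the effectors off the cell's own organelles. Both type I interferons and interferon-gamma induce them. BACH1, the transcription factor whose gene was deleted, is a heme-sensitive repressor that shares DNA elements with AP-1 factors.

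The libraries held CD45+ leukocytes isolated by magnetic sorting from tibialis anterior muscle of male mice 8-12 weeks old that had received cardiotoxin, a snake venom toxin that kills muscle fibers. Both groups carried the floxed Bach1 allele (Bach1 fl/fl); the control mice had no Cre, and the Bach1-cKO mice (labelled KO) also carried Lyz2Cre, which acts in monocytes, macrophages, neutrophils and other cells that use the Lyz2 promoter. Cells were taken at 2 and 4 days post injury (dpi2 and dpi4), with 1 library for each genotype and day. There were therefore no replicates, and no test was possible between groups. Every interval below is a 95% interval for counting error alone, which leaves out the variation between mice and from cell to cell. Where a few cells hold many of the UMIs, such an interval is too narrow even within a library.

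The 4 libraries held from 4177 to 6602 barcodes and from 57010520 to 80228489 UMIs (counted RNA molecules), and 3433 to 5721 cells per library were kept; any pair of libraries shared from 2 to 14 barcodes. Bach1 did not follow the label: it was at 189 and 187 counts per 1000000 UMIs (CPM) in the control and Bach1-cKO libraries at dpi2 and at 207 and 217 CPM at dpi4, but the floxed exon is internal and 3′ reads come from the transcript end, so this count does not check the deletion. Lyz2, the gene that carries the Cre, was at 9388 and 15844 CPM in the controls and at 17.5 and 21.6 CPM in the Bach1-cKO libraries. The genotypes thus differed in Cre and in Lyz2 as well as in the deletion of Bach1, and the part of each was not tested. Cells fell into 26 clusters, of which 16 were named macrophage, monocyte, neutrophil or dendritic cells from marker genes, and each gene's UMIs were then added up within each class, library by library. In neutrophils, for example, all 9 of the neutrophil markers were detected at dpi2, with a summed 53395 CPM in the control and 73889 CPM in the Bach1-cKO library.

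Before the values, the promoters are shown, because interferon signals reach such genes through short DNA elements. GAS, an element of interferon signalling, was searched as TTCNNNGAA, which reads the same on both strands, and the element of IRF factors as GAAANNGAA on both strands. RefSeq promoters (GRCm38.p6, 250 bases before to 50 after the start site) were searched for 7 of the 9 genes, at 8 start sites. Iigp1 was left out of the search, and no promoter was matched for Gbp4. The IRF element was found in all 7 of these genes, against 8.56% of 32851 mouse promoters, and GAS in 4 of them (Igtp, Irgm2, Gbp5 and Gbp7), against 8.30%. The 5 promoters below, each as the 110 bases before the start site, show the arrangements, with matches to either element in capitals.
Igtp: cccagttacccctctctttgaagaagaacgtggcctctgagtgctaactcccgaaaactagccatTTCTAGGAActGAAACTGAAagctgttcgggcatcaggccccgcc
Irgm2: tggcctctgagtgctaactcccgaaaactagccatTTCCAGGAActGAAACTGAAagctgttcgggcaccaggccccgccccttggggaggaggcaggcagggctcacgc
Irgm1: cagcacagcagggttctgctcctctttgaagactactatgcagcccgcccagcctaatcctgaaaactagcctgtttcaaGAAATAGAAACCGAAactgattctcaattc
Gbp5: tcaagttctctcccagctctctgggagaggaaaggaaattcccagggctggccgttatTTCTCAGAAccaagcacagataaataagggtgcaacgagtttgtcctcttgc
Gbp7: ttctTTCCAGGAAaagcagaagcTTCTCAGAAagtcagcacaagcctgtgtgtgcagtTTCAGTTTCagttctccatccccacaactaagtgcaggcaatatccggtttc

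These windows lie at chr11:58199446-58199555, plus strand (Igtp), chr11:58214867-58214976, plus strand (Irgm2), chr11:48871421-48871530, minus strand (Irgm1), chr3:142496824-142496933, plus strand (Gbp5) and chr3:142530226-142530335, plus strand (Gbp7). Igtp and Irgm2 share a block in which GAS is followed by the IRF element, at positions -45 to -37 and -34 to -26 from the start site in Igtp and -75 to -67 and -64 to -56 in Irgm2. In Irgm1 2 IRF matches overlap each other at -30 to -16 and no GAS was found. Gbp7 held 2 GAS matches ahead of an IRF match on the minus strand, and Gbp5 held 1 GAS match in the window and 1 more, with its IRF match, farther upstream. The core TGANTCA that AP-1 and BACH factors share was found in the promoters of Irgm1 (-115 to -109) and Gbp2 (-102 to -96), against 7.81% of all promoters. A match is a string of letters and not a site shown to be bound.

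Gbp5, Gbp7, Gbp3 and Gbp2 lie in that order within chr3:142493978-142638008 (GRCm38, GENCODE annotation, plus strand), Gbp4 at chr5:105115767-105139586 (minus strand), Irgm1 at chr11:48861968-48871683 (minus strand), and Igtp and Irgm2 at chr11:58199556-58207591 and chr11:58199618-58222782 (both plus strand). The annotated spans of Igtp and Irgm2 overlap on the same strand, as do those of Gbp4, Gbp8 and Gbp9. The RefSeq start site of Irgm2 lies within its annotated span. The guanylate-binding proteins are close paralogs, so the split of reads among them is less certain than their sum.

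Levels were compared over 6 leukocyte classes. Among these, the control library at dpi2 held the 9 genes at their highest summed level in neutrophils, followed by monocytes, T cells, NK cells, dendritic cells and macrophages. B cells (17 cells, 644 CPM) and endothelial cells (19 cells, 1087 CPM) were not among the 6. The summed level was 683 CPM in neutrophils (642 to 725), 606 CPM in monocytes (597 to 616), 565 CPM in T cells (448 to 702), 445 CPM in NK cells (376 to 524), 334 CPM in dendritic cells (316 to 353) and 191 CPM in macrophages (186 to 195). Monocytes and T cells, and T cells and NK cells, were neighbours in this order whose intervals overlapped. Monocytes were 45.5% of the kept control cells at dpi2 and held 61.9% of the UMIs of these genes.

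Over the same 6 classes the order was different in the other 3 libraries. In the Bach1-cKO library at dpi2, T cells led at 488 CPM (346 to 670), monocytes were at 248 CPM and neutrophils at 167 CPM, and macrophages were again lowest at 105 CPM. At dpi4 T cells (717 CPM) and NK cells (694 CPM) led in the control, and monocytes (794 CPM) and T cells (763 CPM) in the Bach1-cKO library, with neutrophils lowest in both at 124 and 192 CPM, although in the Bach1-cKO library their interval overlapped that of dendritic cells. Outside the 6 classes at dpi4, endothelial cells were at 707 CPM in the control and 894 CPM in the Bach1-cKO library. B cells were at 163 and 87.9 CPM there, on 3 and 5 UMIs. T cells numbered only 14 to 52 per library, NK cells 22 to 80, and monocytes at dpi4 52 and 71.

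**Figure D1:**
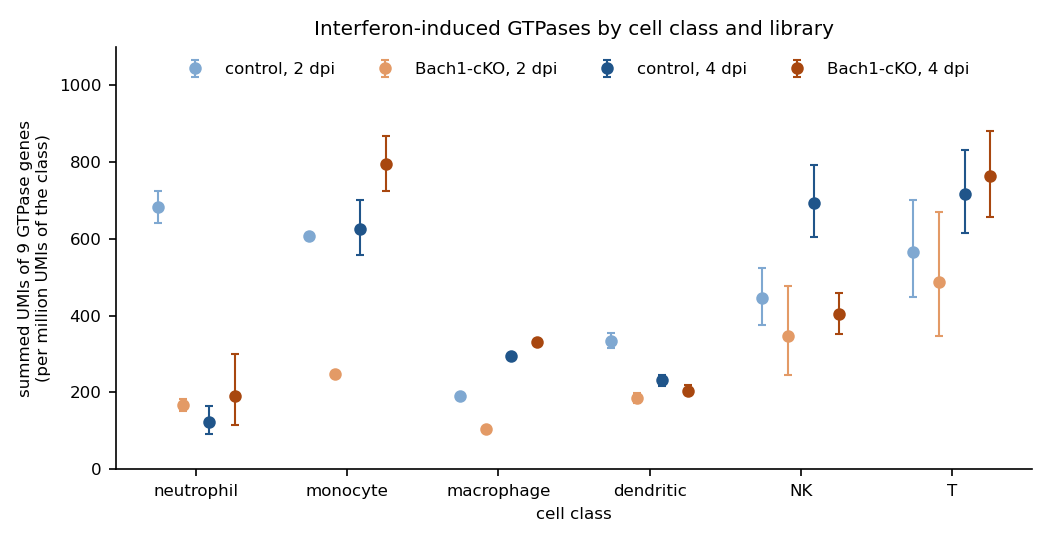
Summed level of the 9 GTPase genes (vertical axis, CPM of all UMIs of the class) in 6 cell classes (horizontal axis) for the 4 libraries. Points are single libraries and bars are 95% counting intervals; at dpi2 the Bach1-cKO neutrophils (167 CPM) sit far below the control neutrophils (683 CPM), whereas at dpi4 the macrophage points are close together (294 and 332 CPM).

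The make-up of the sum differed between lymphoid and myeloid classes. A 3′ method counts 1 end per molecule, so the shares below are shares of UMIs and were not divided by transcript length. In the control library at dpi2, Irgm1 gave 39.3% of the UMIs of the 9 genes in macrophages, 37.9% in dendritic cells and 31.9% in monocytes, but 6.94% in NK cells and 8.64% in T cells. Gbp7 was the leading gene in NK cells (35.4%) and T cells (38.3%). Gbp4 gave 21.5% of the sum in NK cells and 9.88% in T cells, and 0.36% in macrophages. Its level was 95.9 CPM in NK cells and 55.8 CPM in T cells, against 6.50 CPM in monocytes, 5.49 CPM in dendritic cells, 1.95 CPM in neutrophils and 0.696 CPM in macrophages. The same split of Gbp4 was seen in the Bach1-cKO library at dpi2, with 75.0 CPM in NK cells and 1.33 CPM in monocytes.

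**Figure D2:**
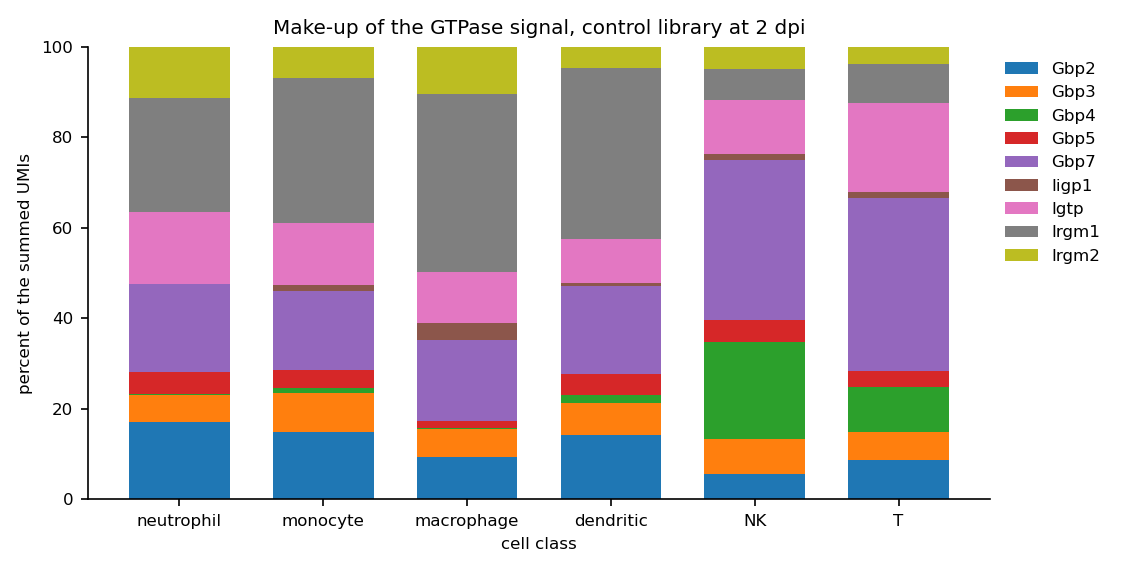
Share of each gene in the summed UMIs of the 9 GTPase genes (vertical axis, percent) in 6 cell classes (horizontal axis) of the control library at dpi2. Irgm1 takes the largest part in macrophages (39.3%), and Gbp7 in T cells (38.3%), where Gbp4 is also visible (9.88%).

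The main comparison asked how the genes differed between Bach1-cKO and control leukocytes at dpi2, when inflammatory monocytes fill the injured muscle. In every myeloid class the summed level was lower in the Bach1-cKO library: 4.09-fold in neutrophils (3.67 to 4.56), 2.45-fold in monocytes (2.36 to 2.54), 1.82-fold in macrophages (1.74 to 1.89) and 1.81-fold in dendritic cells (1.65 to 1.99). A gene was counted as past the size rule when the libraries differed by at least 2-fold, the interval left out a ratio of 1 and the pair held at least 50 UMIs. By this rule all 9 genes were lower in monocytes, where 2.67% of the 10035 genes scored were lower. In neutrophils 7 of 7 scored genes were lower (6.75% of all genes scored), in dendritic cells 4 of 7 (1.43%) and in macrophages 3 of 8 (2.14%), and no member was past the rule in the higher direction. The median log2 ratio of the scored members was -2.12 in neutrophils, -1.45 in monocytes, -1.05 in dendritic cells and -0.91 in macrophages; over all genes scored it was -0.30 in neutrophils and -0.02 in macrophages and -0.01 in monocytes and in dendritic cells. The shift of all genes in neutrophils was taken up by TMM scaling, after which the summed log2 ratio was -1.73 instead of -2.03. In NK cells (log2 ratio -0.36, interval -0.92 to 0.17) and T cells (-0.21, -0.80 to 0.36) the intervals included no difference.

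Among the guanylate-binding proteins in monocytes, Gbp2 was at 90.3 CPM in the control and 30.5 CPM in the Bach1-cKO library at dpi2. Gbp5, which promotes assembly of the NLRP3 inflammasome, was at 23.9 and 5.93 CPM, 4.02-fold lower (3.21 to 5.11). Gbp4 was lower by a similar factor, with 179 and 19 UMIs (4.90-fold, 3.05 to 8.33). Gbp3 (52.4 and 20.6 CPM) and Gbp7 (106 and 49.4 CPM) differed less, Gbp7 being the most abundant of the guanylate-binding proteins. The control value lay above the Bach1-cKO value for each of the 5 genes, with intervals that did not meet.

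Among the immunity-related GTPases, the effector Iigp1 showed the widest gap in monocytes, from 8.28 to 1.12 CPM (7.41-fold lower, 4.46 to 13.2), on 228 and 16 UMIs. The regulator Igtp was at 83.8 and 30.7 CPM. The other regulators, Irgm1 (194 and 91.0 CPM) and Irgm2 (41.7 and 17.2 CPM), were 2.13-fold (2.00 to 2.26) and 2.42-fold (2.11 to 2.79) lower. The smallest differences among the 9 genes were thus those of Irgm1 and Gbp7, which were also the most abundant.

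In neutrophils Gbp2 fell from 116 to 26.0 CPM, Gbp7 from 132 to 36.4 CPM, Igtp from 109 to 30.0 CPM, Irgm1 from 173 to 47.4 CPM and Irgm2 from 76.9 to 17.7 CPM between the control and the Bach1-cKO library. The largest ratio was that of Gbp5, 33.2 against 3.34 CPM (log2 ratio -3.32, -4.46 to -2.32), on 51 and 10 UMIs. Gbp4 had 3 and 0 UMIs and Iigp1 had none in either library, and a count of 0 allows up to 1.95 CPM in the control and 1.0013 CPM in the Bach1-cKO library. The control neutrophils were the shallower ones, with a median of 2308 UMIs per cell against 3417. Summed monocyte markers in these neutrophils were at 6491 and 6465 CPM and summed macrophage markers at 739 and 573 CPM in the control and Bach1-cKO libraries, with all 10 and all 12 of them detected in both. A further cluster of shallow cells led by Pdcd1lg2 and Prok2, left without a name, was mostly Bach1-cKO cells (474, against 88 control cells at dpi2), and in it the summed level was 171 CPM in the control and 48.4 CPM in the Bach1-cKO library.

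In macrophages at dpi2 the genes past the size rule were Iigp1 (6.86 and 1.12 CPM, log2 ratio -2.61), Gbp5 (111 and 30 UMIs, 2.91-fold lower, 1.93 to 4.51) and Gbp2 (17.7 and 8.14 CPM). Irgm1, at 75.0 and 41.5 CPM, Irgm2, at 19.8 and 10.5 CPM, Igtp, at 21.8 and 11.7 CPM, and Gbp3, at 11.7 and 6.64 CPM, each lay between 1.77- and 1.89-fold lower, short of the rule. Gbp7 differed least (34.2 and 24.1 CPM, 1.42-fold). In dendritic cells Gbp3, Gbp7, Igtp and Irgm2 were past the rule, whereas Gbp5 was at 15.4 and 15.3 CPM in the class as a whole and at 12.1 and 4.40 CPM (35 and 13 UMIs) in the largest dendritic cluster, cluster 7. Iigp1 had 10 and 20 UMIs in the dendritic class, too few to score. Summed neutrophil markers were higher in the Bach1-cKO library in these classes, at 115 and 270 CPM in macrophages, 248 and 535 CPM in monocytes and 131 and 363 CPM in dendritic cells, with at least 8 of 9 markers detected; their part in the result was not tested.

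**Figure D3:**
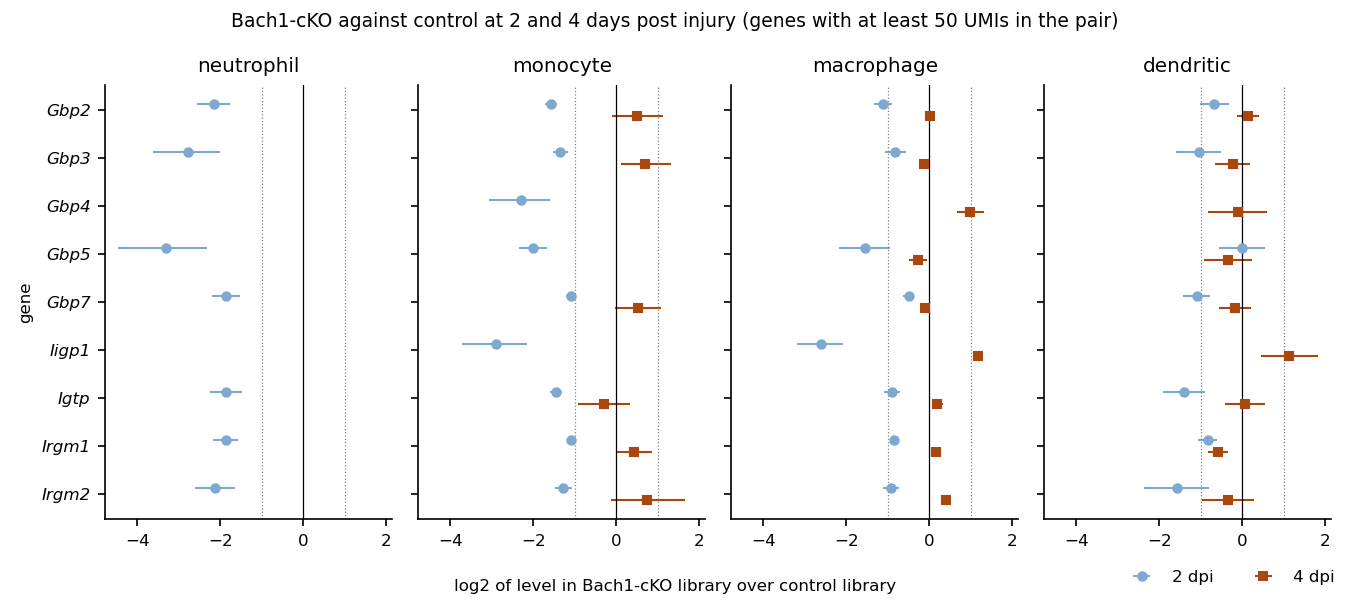
log2 of the level in the Bach1-cKO library over the control library (horizontal axis) for each GTPase gene (vertical axis) in 4 classes, at dpi2 (circles) and dpi4 (squares), with 95% counting intervals; genes with fewer than 50 UMIs in the pair are left out, and dotted lines mark 2-fold. Circles lie left of 0 in monocytes (-1.09 to -2.89), and the squares farthest to the right are Iigp1 in macrophages (1.16) and dendritic cells (1.13) and Gbp4 in macrophages (0.98); in monocytes 5 of 6 squares lie right of 0, with a median of 0.51.

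The monocyte class was made of different clusters in the libraries, so levels were also compared within clusters. Of the control monocytes at dpi2, 1132 were in a Vcan and Chil3 cluster (cluster 3), 755 in a Cxcl10 and Ccl12 cluster (cluster 8) and 676 in an F10 and Thbs1 cluster (cluster 6). Of the Bach1-cKO monocytes, 416 were in a Vcan and Il6 cluster (cluster 13) that held 38 control cells, and 219, 103 and 266 in clusters 3, 8 and 6. The summed level in cluster 13 was low in both libraries, 164 CPM in the control and 119 CPM in the Bach1-cKO library. Within cluster 3 it was 669 and 407 CPM (log2 ratio -0.72), within cluster 6 333 and 199 CPM (-0.75) and within cluster 8 791 and 641 CPM (-0.30, -0.40 to -0.21). With these 3 clusters of the Bach1-cKO monocytes weighted as in the control, the log2 ratio was -0.54, against -1.29 for the whole class. Cluster 13, with 38 control cells, was too small to be weighted, so its 416 Bach1-cKO cells were left out of that value. The lower level of the class was thus present within each of the 3 large clusters, at a smaller size. With each library clustered by itself, the monocyte class held 593 Bach1-cKO cells and 5 of the 9 genes were past the rule, against 3.68% of all genes scored.

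In macrophages the gap at dpi2 was widest in a Lyve1 and Cd163 cluster (cluster 10), with 362 CPM in the control and 153 CPM in the Bach1-cKO library (log2 ratio -1.24) and intervals below a log2 ratio of 0 for the 8 genes with enough UMIs, the nearest to 0 being Gbp7 at -0.93. The share of all genes that were lower was not computed within clusters. Iigp1 had the lowest ratio there, a log2 of -3.65 (-4.46 to -2.93). In the Pdpn and Cd36 cluster (cluster 0), which held 1248 and 600 cells, the sum was 139 and 81.0 CPM (-0.78). In cluster 4, of 107 and 62 cells, the interval included no difference (-0.16, -0.63 to 0.31). In the largest dendritic cluster (cluster 7) the sum was 359 and 167 CPM (-1.11).

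**Figure D4:**
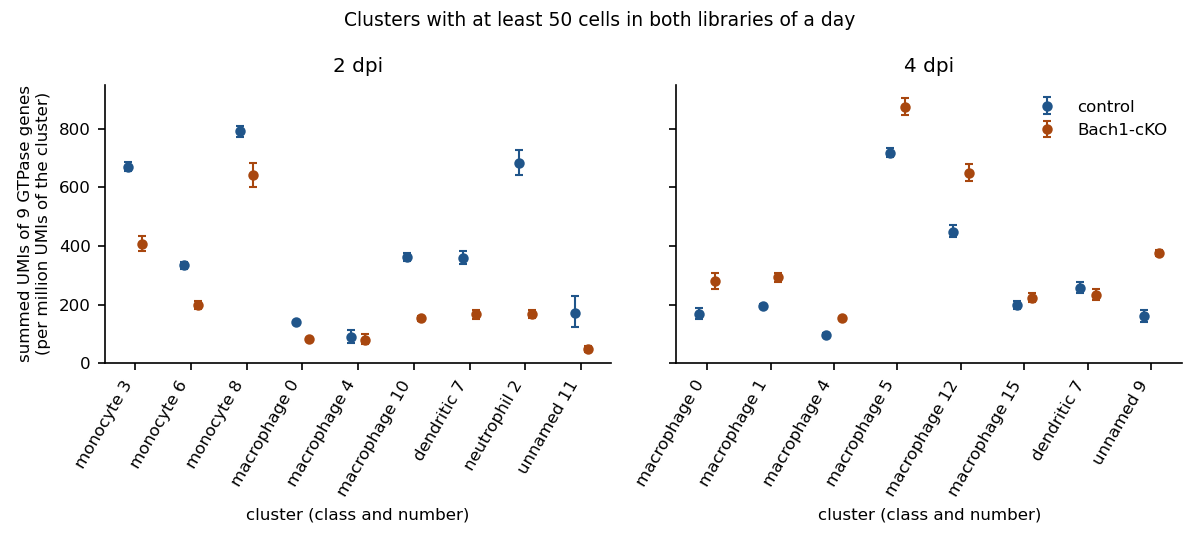
Summed level of the 9 GTPase genes (vertical axis, CPM of all UMIs of the cluster) within clusters that held at least 50 cells in both libraries (horizontal axis), at dpi2 and dpi4. Points are single libraries with 95% counting intervals; control points lie above Bach1-cKO points at dpi2 in each cluster shown, although the intervals of macrophage cluster 4 overlap, and in the macrophage clusters at dpi4 the Bach1-cKO points are the higher ones, up to 875 CPM in cluster 5.

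The share of cells with transcripts of these genes gave the same direction after every cell had been thinned to 2000 UMIs. At least 1 UMI of any of the 9 genes was found in 58.8% of control and 30.0% of Bach1-cKO monocytes at dpi2, 47.8% and 17.8% of neutrophils, 39.9% and 24.4% of dendritic cells and 27.1% and 15.1% of macrophages. Before thinning these shares were 91.0% and 71.0%, 52.3% and 23.8%, 79.4% and 66.2%, and 75.8% and 70.8%. No class is known to lack these genes, so no background share could be set beside them; the lowest share was 13.4%, in control neutrophils at dpi4. In neutrophils 167 of 631 control and 55 of 829 Bach1-cKO cells were too shallow to be thinned.

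The rest of the pathway was read from gene lists at dpi2, by the same size rule. Of all genes scored, 2.67% were lower in monocytes, 6.75% in neutrophils, 2.14% in macrophages and 1.43% in dendritic cells, and 2.3% were higher in macrophages. Of 15 other interferon-induced GTPases found in the files, 7 of 7 scored were lower in monocytes and 3 of 3 in neutrophils, among them Ifi47 (266 and 117 CPM in monocytes), an immunity-related GTPase, and Mx1 (178 and 56.3 CPM), a dynamin-like antiviral protein; in macrophages 3 of 8 scored were lower. The classical type I interferon targets were lower in 8 of 10 scored genes in monocytes, 9 of 9 in neutrophils, 10 of 10 in macrophages and 9 of 10 in dendritic cells, such as Ifit3 (337 and 81.1 CPM in monocytes), which codes for an antiviral RNA-binding protein. Of 10 transcription factor genes, 4 were lower in monocytes, among them Irf7 (525 and 212 CPM) and Nlrc5 (38.8 and 19.4 CPM), whereas Irf1 (118 and 88.8 CPM) and Irf9 (94.7 and 71.4 CPM) were short of the rule; 5 of 7 scored were lower in neutrophils, 3 of 10 in macrophages and 2 of 9 in dendritic cells. None of the 7 receptor and kinase genes, Ifngr1, Ifngr2, Ifnar1, Ifnar2, Jak1, Jak2 and Tyk2, was past the rule in any of the 4 myeloid classes. Usp18, an inhibitor of type I receptor signalling that interferon itself induces, was lower (144 and 56.0 CPM in monocytes); Socs3, another inhibitor, was at 28.3 and 82.1 CPM in macrophages, past the rule in the other direction. Of 16 genes for partners of these GTPases, such as autophagy and inflammasome components, at most 1 was past the rule in either direction in any myeloid class.

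Of 8 interferon-gamma targets, at most 6 could be scored in a class. In monocytes 1 of 6 scored was lower, Cxcl9 (5.73 and 2.02 CPM), beside 2.67% of all genes; in neutrophils 1 of 3 was lower (6.75%), and in dendritic cells 1 of 5 was lower (1.43%) and 1 higher (1.5%). In macrophages none of 4 was lower and Acod1, the enzyme that makes itaconate, was higher (3.70 and 17.6 CPM; 2.3% of all genes were higher). Ifng, the gene of interferon-gamma, had 47 UMIs over 73 control NK cells and 8 UMIs over 22 Bach1-cKO NK cells at dpi2 and no UMI in T cells. At dpi4 it had 397 UMIs in 39 control NK cells against 25 in 80 Bach1-cKO NK cells, but 380 of the 397 were in 1 cell; a UMI was found in 11 of 39 and 14 of 80 NK cells. T cells at dpi4 had 17 UMIs in 5 of 40 control cells, 11 of them in 1 cell, and 22 UMIs in 13 of 52 Bach1-cKO cells. Ifnb1 and Ifna4, type I ligands, were at 0.327 CPM or lower in macrophages, monocytes, neutrophils and dendritic cells at dpi2. Il12b, a subunit of interleukin-12, which drives NK and T cells to make interferon-gamma, had 6 UMIs in control and 140 in Bach1-cKO dendritic cells at dpi2. At dpi4 the 3 ligand genes scored in dendritic cells, Il12b among them, had log2 ratios from -0.42 to -0.32.

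At dpi4 the same comparison gave another picture. The summed level in macrophages was 294 CPM in the control and 332 CPM in the Bach1-cKO library (1.13-fold, 1.10 to 1.16), and in monocytes 627 and 794 CPM (1.27-fold, 1.10 to 1.47, on 306 and 479 UMIs). The 52 control and 71 Bach1-cKO monocytes were spread differently over the clusters, with 48.1% and 57.7% in cluster 3, 30.8% and 14.1% in cluster 6 and 19.2% and 23.9% in cluster 8. In cluster 3 the sum was lower in the Bach1-cKO library, 611 and 538 CPM, in cluster 6 it was 144 and 247 CPM and in cluster 8 1497 and 1769 CPM, and the intervals overlapped in each of these clusters. Summed macrophage markers in these monocytes were at 13294 and 9458 CPM; their part in the result was not tested. Without Iigp1 the log2 ratio in macrophages was 0.0691 instead of 0.18. With each library clustered by itself, the log2 ratio was 0.77 in macrophages and 1.76 in monocytes, whose class was then drawn differently. In neutrophils (46 and 19 UMIs) and T cells the intervals included no difference, and in NK cells the sum was lower, 694 and 403 CPM. In dendritic cells it was 231 and 205 CPM, but that direction depended on the cell filter and the clustering, and the log2 ratio of -0.17 became 0.16 with a minimum of 200 genes per cell. Summed macrophage markers in the dendritic class were at 4676 CPM in the control and 2236 CPM in the Bach1-cKO library, with all 12 detected, and neutrophil markers at 114 and 19.8 CPM, with 8 and 7 of 9; their part in the result was not tested. One member was past the size rule in macrophages (0.835% of all genes scored were higher) and in dendritic cells (0.784%), and it was Iigp1 in both. Iigp1 was at 20.1 and 44.8 CPM in macrophages (2.23-fold higher, 2.06 to 2.42) and at 6.07 and 13.3 CPM in dendritic cells (2.18-fold, 1.37 to 3.55). Gbp4 in macrophages, at 2.87 and 5.68 CPM, was just short of 2-fold (1.98, 1.59 to 2.47). Gbp3, Gbp5 and Gbp7 lay slightly below the control, at 0.907, 0.828 and 0.935 of its level in the whole class, but not within most clusters: in clusters 0, 1, 4, 12 and 15 the log2 ratios of all 3 were above 0, with intervals that in part included no difference. In cluster 5, where these genes were highest, the log2 ratios were 0.0349 for Gbp3, -0.29 for Gbp5 and -0.0044 for Gbp7, and all 3 intervals included no difference.

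Within macrophage clusters at dpi4 the Bach1-cKO library was higher throughout. The log2 ratio of the sum was 0.73 in cluster 0, 0.59 in the Apoe and Cx3cr1 cluster (cluster 1), 0.64 in cluster 4, 0.28 in cluster 5, 0.53 in the C4b and Ccl8 cluster (cluster 12) and 0.17 in cluster 15, and with clusters weighted as in the control it was 0.43 for the class instead of 0.18. Cluster 5, whose leading genes included Iigp1 although the 9 genes had been kept out of the clustering, held the highest levels among the macrophage clusters compared, 718 and 875 CPM, in 709 control and 362 Bach1-cKO cells. Iigp1 was higher in cluster 1 by a log2 of 2.18 (1.81 to 2.55), in cluster 4 by 2.29 and in cluster 5 by 1.40. An unnamed cluster led by Slc40a1, Vcam1 and Spic held 803 Bach1-cKO and 61 control cells at dpi4, with 375 and 160 CPM, and Iigp1 had 674 and 1 UMIs there. All 12 macrophage markers were detected in this cluster, but it stayed unnamed because another class, with 0 markers detected, scored highest. The values of the macrophage class leave it out, and naming it macrophage brought the log2 ratio of the class to 0.25.

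Between dpi2 and dpi4 the summed level of the macrophage class rose in both genotypes, unevenly over the genes, while the clusters that made up the class changed. Cluster 0 held 1248 of 1931 control macrophages at dpi2 and 73 of 2925 at dpi4, whereas clusters 1 and 5 held 0.984% and 0.880% at dpi2 and 43.7% and 24.2% at dpi4. Within the 3 control clusters that had at least 50 cells on both days the sum differed less than in the class, at 139 and 168 CPM in cluster 0, 89.7 and 97.9 CPM in cluster 4 and 180 and 198 CPM in cluster 15, and the intervals of clusters 4 and 15 included no difference. Within the Bach1-cKO library it was 81.0 and 279 CPM in cluster 0 and 80.2 and 153 CPM in cluster 4. Summed monocyte markers in the macrophage class were at 1958 CPM at dpi2 and 1076 CPM at dpi4 in the control, and at 2291 and 1079 CPM in the Bach1-cKO library. Neutrophil markers were at 115 and 96.3 CPM in the control and at 270 and 75.9 CPM in the Bach1-cKO library. The part of these markers in the result was not tested. The values that follow are those of the whole class. In the control 5 of 9 genes were higher at dpi4 (9.54% of all genes scored were higher): Gbp2 rose from 17.7 to 52.6 CPM, Gbp3 from 11.7 to 34.1, Gbp4 from 0.696 to 2.87, Gbp5 from 2.97 to 10.0 and Iigp1 from 6.86 to 20.1 CPM. The regulators Igtp (21.8 and 21.5 CPM) and Irgm1 (75.0 and 72.2 CPM) were level, with intervals that included no difference. In the Bach1-cKO library, which had started lower, 8 of 9 were higher (7.86% of all genes scored), and the sum rose 3.16-fold (3.03 to 3.29) against 1.54-fold in the control (log2 0.62, 0.58 to 0.66). Iigp1 had the largest factor, 39.9-fold (28.2 to 58.1), from 33 UMIs at dpi2 to 1427 at dpi4. Irgm1 had the smallest, 1.94-fold, from 41.5 to 80.4 CPM. The control rise changed with the way the class was drawn: the log2 ratio of 0.62 was 0.0812 with each library clustered by itself, which left 1660 macrophages, 444 monocytes and 1058 unnamed cells at dpi4, and -0.31 with monocytes and macrophages pooled.

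**Figure D5:**
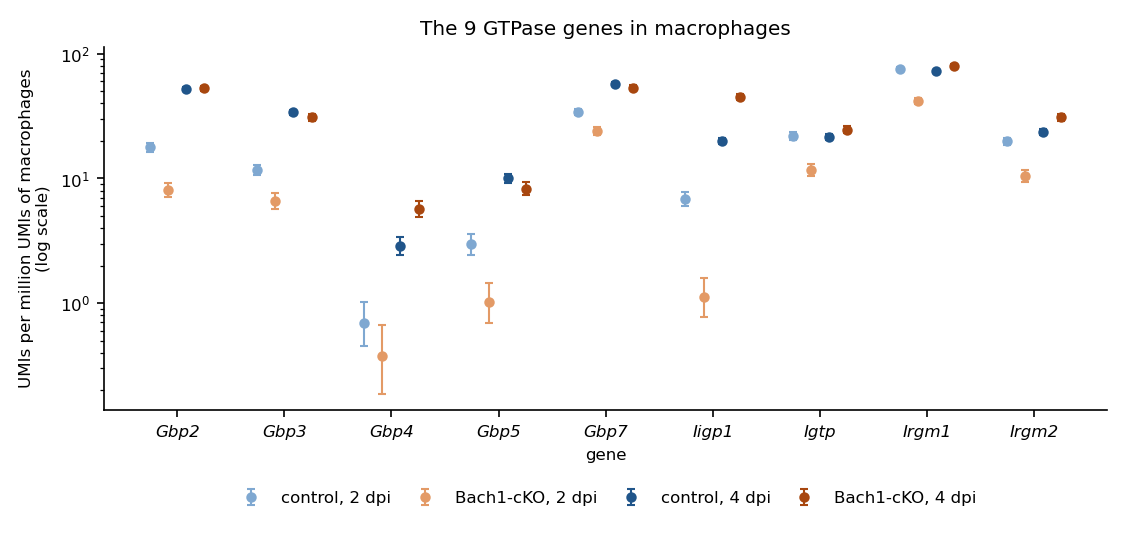
Level of each GTPase gene (horizontal axis) in macrophages (vertical axis, CPM of all UMIs of macrophages, log scale) in the 4 libraries, with 95% counting intervals. Bach1-cKO points at dpi2 are the lowest for every gene, and Iigp1 spans the widest range, from 1.12 to 44.8 CPM.

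Neutrophils went the other way in the control, where the sum fell from 683 to 124 CPM and 7 of 7 scored genes were lower at dpi4 (6.52% of all genes scored were lower), from 1048 UMIs to 46 UMIs in 128 cells. Summed neutrophil markers in these control cells were at 53395 CPM at dpi2 and 35482 CPM at dpi4, with 9 and 8 of 9 detected and Ly6g at 0 at dpi4, and summed macrophage markers at 739 and 3659 CPM, with all 12 detected; their part in the result was not tested. In the Bach1-cKO neutrophils the sum was 167 CPM at dpi2 and 192 CPM at dpi4, and the interval of the log2 ratio (-0.54 to 0.86) included no difference. In monocytes, few at dpi4, the sum was at 606 CPM at dpi2 and 627 CPM at dpi4 in the control, where 3 of 9 genes, Gbp4, Gbp5 and Iigp1, were past the rule in the higher direction (4.57% of all genes scored were higher) and 4 of 9 had a log2 ratio below 0. In the Bach1-cKO library the sum was at 248 and 794 CPM and 7 of 7 scored genes were higher (5.41%). The Bach1-cKO monocytes were in different clusters on the 2 days: cluster 13, low in these genes, held 41.4% of them at dpi2 and 4.23% at dpi4, cluster 3 held 21.8% and 57.7%, and cluster 8 held 10.3% and 23.9%. Summed macrophage markers in the monocyte class were at 5781 CPM at dpi2 and 9458 CPM at dpi4 in the Bach1-cKO library and at 4900 and 13294 CPM in the control, with all 12 detected, and at dpi4 they exceeded the summed monocyte markers (7003 and 7477 CPM); their part in the result was not tested.

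Over the 20 points of 1 class in 1 library, the genes whose log2 level was most like the summed level of the members were Herc6 (Pearson's r = 0.91), Nt5c3 (0.86), Gm4955 (0.86), Ddx58 (0.85) and Slfn9 (0.83), of 7602 genes ranked; the points share libraries and depth, and the values describe likeness alone. Of the 10 most alike genes, 7 were also among the 10 by Spearman's rho. Among the members, Gbp3 followed the sum of the other 8 most closely (r = 0.87) and Iigp1 least (r = 0.31).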

How the data were processed

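Single-cell 3′ RNA libraries (10x Genomics) of CD45+ muscle leukocytes were analysed, 1 per genotype and day. The authors had made raw UMI counts per gene and barcode with Cell Ranger 6.1.2 and the mm10 genome, per the submitters' processing notes; the deposited counts were not normalized and held barcodes with at least 500 UMIs. The labels and the methods name different kit versions, so none is given.

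Barcodes were kept with under 10% mitochondrial UMIs and at least 500 genes, and the highest Scrublet scores were removed at 0.8% per 1000 cells. Counts were scaled to 10000 per cell, 2000 variable genes without the genes of the lists were reduced to 30 components, and Leiden clusters were made over 15 neighbours at resolution 1 (scanpy 1.11.5, leidenalg 0.10.2), without integration. Clusters were named from marker genes with at least 3 detected. UMIs were summed per class and library. CPM values have exact Poisson intervals and ratios exact conditional binomial intervals. TMM factors came from edgeR 4.0.16. The size rule and the intervals were tested on simulated Poisson counts. These hold no variation between cells or mice, so the simulation cannot check for it. Similar genes were ranked on log2(CPM + 1) among genes with a mean of at least 10 CPM. By rule the text could name the 9 members, genes of the other lists, the 10 genes most alike in pattern, and Bach1 and Lyz2 as checks of the labels; leading genes of clusters are named to identify them. Ifng over single cells and the clusters left unnamed were looked at after the values were seen.

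The members, markers and lists were chosen with earlier results of these data known, so the lists are no independent evidence of a direction. Acod1 was matched as Irg1. No protein sequences were used here. Some items are not reported here.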

Additional observations from a re-analysis of the deposited data

Results flagged for a closer look

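In macrophages and monocytes the ratio of Bach1-cKO over control lay below 1 at dpi2 and above 1 at dpi4, with counting intervals on opposite sides; for monocytes this is the value of the class, over 52 and 71 cells at dpi4, and in cluster 3, which held 48.1% and 57.7% of them, the sum at dpi4 was 611 CPM in the control and 538 CPM in the Bach1-cKO library, with overlapping intervals. With 1 library per group the difference between the days was not tested. On the log2 scale the ratio of the summed genes was 1.04 higher at dpi4 than at dpi2 in macrophages and 1.63 higher in monocytes. Among single genes in macrophages with intervals on opposite sides the same difference was 3.77 for Iigp1, 1.32 for Irgm2, 1.10 for Igtp and 1.01 for Irgm1. For the other genes it was 1.88 (Gbp4), 1.27 (Gbp5), 1.13 (Gbp2), 0.68 (Gbp3) and 0.41 (Gbp7). Of these, Gbp3, Gbp5 and Gbp7 were still below the control at dpi4, and without Iigp1 the log2 ratio of the macrophage sum at dpi4 was 0.0691. In monocytes the only gene with intervals on opposite sides was Gbp3, with a difference of 2.04, which at dpi4 rested on 37 and 74 UMIs.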

How the results depend on the processing

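At dpi2 the lower summed level in neutrophils, monocytes, macrophages and dendritic cells of the Bach1-cKO library kept its direction under every alternative run, but its size moved. Monocytes lay at a log2 ratio of -0.54 with clusters weighted as in the control, -0.89 with each library clustered by itself (5 genes past the rule, against 3.68% of all genes), -1.21 without doublet removal and -1.38 with cells thinned. Macrophages lay at -0.96 weighted, -0.80 with interferon genes among the variable genes, -0.92 thinned and -1.27 pooled with monocytes (8 past the rule, 2.68% of all genes); unpooled, 7 were past 1.5-fold (6.03%). Neutrophils lay at -1.73 with TMM factors and -2.31 with the Pdcd1lg2 and Prok2 cluster counted in, with 4 past the rule at a minimum of 200 UMIs (4.3%). Dendritic cells lay at -1.07 with each library by itself, with 2 past the rule when thinned (2.63%) and 1 at 200 UMIs (1.09%).

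At dpi4 the macrophage ratio stayed above 0: it was 0.27 at resolution 0.5 and 0.21 at resolution 2, 0.26 with interferon genes variable, 0.25 with 200 genes per cell, 0.24 with under 5% mitochondrial UMIs, 0.26 without doublet removal, 0.32 thinned, 0.25 with naming limited to classes with 3 detected markers, 0.43 weighted and 0.77 with each library by itself. The count past the rule became 2 under 7 alternatives (both resolutions, 1.5-fold, each library by itself, 5% mitochondrial, no doublet removal and pooling), with 2.95% of all genes at 1.5-fold and 0.834% to 1.21% in the others. Monocytes were at 1.76 with each library by itself and 0.56 with interferon genes variable. The dendritic ratio turned to 0.0474 at resolution 2, 0.16 at 200 genes and 0.0439 at 5% mitochondrial, and was -0.0028 with interferon genes variable. The rise of control macrophages over time turned to -0.31 when monocytes were pooled with them and was 0.0812 with each library by itself (1 past the rule in both, with 10.8% and 8.54% of all genes), 0.70 with TMM factors, 0.73 with interferon genes variable, 0.57 with 200 genes, 0.74 at 5% mitochondrial and 0.68 thinned. In the Bach1-cKO library it was 1.73 with TMM factors, 1.79 with interferon genes variable, 1.79 at 5% mitochondrial, 1.17 pooled and 1.93 thinned. The cause of these shifts was not tested.

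Leaving out each gene in turn gave sums at dpi2 of -2.09 to -1.99 in neutrophils, -1.40 to -1.25 for monocytes, -0.95 to -0.82 for macrophages and -0.92 to -0.81 for dendritic cells. At dpi4 these were -0.27 to -0.00041 (without Irgm1) in dendritic cells, 0.0691 (without Iigp1) to 0.24 for macrophages, and, for the few monocytes and neutrophils, 0.28 to 0.43 and 0.48 to 1.07, and over time 0.48 to 0.94 in control and 1.47 to 1.98 in Bach1-cKO macrophages. The weighting, the changed naming and the counting in of the Pdcd1lg2 and Prok2 cluster were chosen after seeing the data. No paired analysis was possible because each group had 1 library. Depth limits T cells, NK cells and, at dpi4, monocytes and neutrophils.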
